A study of Mus musculus with 9 samples.

Results

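The CCR4-NOT complex is the main machine that shortens the poly(A) tails of cytoplasmic mRNAs, and its subunits were followed here as mRNAs: how much of each transcript came down with CELF2 protein. The members were the genes of 10 subunits, *Cnot1*, *Cnot2*, *Cnot3*, *Cnot4*, *Cnot6*, *Cnot6l*, *Cnot7*, *Cnot8*, *Cnot10* and *Cnot11*, out of 18555 protein-coding genes with a count. They were taken by name, as subunits of the complex, by a choice made with earlier results of these data known. Every transcript row whose RefSeq accession the reference lists under these genes was taken, which gave 68 rows of 68241 rows matched to protein-coding genes. Of the 68 rows, 58 held a count in at least 1 library and 10 were at 0 in all of them. All 10 genes passed the filter on low counts.

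In RNA immunoprecipitation followed by sequencing (RIP-seq), an antibody pulls a protein down and the RNA that comes with it is sequenced. All 9 libraries came from the cytoplasmic fraction of the cortex of mice at postnatal day 0 that were heterozygous for a *Celf2* knock-in (KI) allele, CELF2 p.R493H. CELF2-KI RIP (n = 3) used 10 µg of rabbit antibody against CELF2 for 3 hours, IgG RIP (n = 3) used the same amount of normal rabbit IgG, and input (n = 3) was taken from the same fraction without any pull-down. The controls therefore carry the KI allele too, no wild-type library entered, and the mutant protein cannot be told apart from the protein of the other allele. Estimated counts do not read a base change, so they do not check the genotype. CELF2 is an RNA-binding protein of neurons, and the question was which cytoplasmic mRNAs the mutant is found with. The number of animals behind a library was not given in the sources used here.

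As background, deadenylation is the first step by which most mRNAs are silenced or destroyed, and microRNA partners and other RNA-binding proteins recruit CCR4-NOT to the mRNAs they bind. In neurons the control of tail length also sets when stored mRNAs are translated. CNOT1 is the scaffold. A CCR4-type nuclease (CNOT6 or CNOT6L) and a CAF1-type nuclease (CNOT7 or CNOT8) dock on its middle, CNOT2 and CNOT3 form the NOT module at its C-terminus, and CNOT10 and CNOT11 sit at its N-terminus. CNOT4 is a ubiquitin ligase that is only loosely attached in mammals.

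The libraries held between 15919600 and 20052716 estimated counts in CELF2-KI RIP, between 17365561 and 28773130 in IgG RIP, and between 69125700 and 105116427 in input, so that input was the deepest. Levels are given in CPM, counts scaled to a common library size. IgG RIP replicate 3 stood apart from the others of its group. Its log2 CPM correlated with those of IgG RIP replicates 1 and 2 at r = 0.900 and r = 0.898 across genes, against r = 0.951 between those replicates. Of its counts, 74.1% fell on protein-coding genes, against 52.0% and 53.8%. By this share, IgG RIP replicates 1 and 2 were the libraries far from the other groups. The inputs had 80.1%, 74.7% and 78.7%, and the CELF2-KI RIPs had 85.3%, 84.0% and 84.9%. Values without IgG RIP replicate 3 are given where leaving it out changed a reported call. *Celf2* mRNA itself was higher in CELF2-KI RIP than in IgG RIP (log2 fold change 1.46 ± 0.18, SE) and than in input (1.11 ± 0.18). Markers of every cell type named for the tissue were detected, as were a few genes of other organs. Of 3 liver genes, *Alb* and *Apoa1* did not pass the filter on low counts and *Ttr*, which the choroid plexus also makes, lay between 161 and 449 CPM in input. Of 3 muscle genes, *Ckm* did not pass and *Acta1* and *Myh3* together lay between 4.05 and 4.48 CPM in input. The summed level of 5 excitatory neuron markers was between 1122 and 1409 CPM in CELF2-KI RIP, between 554 and 693 CPM in IgG RIP and between 645 and 788 CPM in input. That of 5 radial glia markers was between 123 and 167, between 299 and 344, and between 360 and 378 CPM in the same order, and that of 3 erythroid markers was between 59.0 and 67.6, between 263 and 414, and between 651 and 834 CPM. For 4 inhibitory neuron markers the sum was also above both controls, between 370 and 469, between 228 and 281, and between 285 and 304 CPM. Sums of oligodendrocyte precursor, astrocyte and microglia markers lay above IgG RIP and overlapped input, and that of endothelial markers overlapped both. The part of these shifts in the results was not tested. Input and RIPs came from the same cytoplasmic fraction, so these levels describe which RNA was recovered, and numbers of cells were not measured.

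The mRNAs of the subunits did not move as 1 group. Those of both CCR4-type nucleases, *Cnot6* and *Cnot6l*, were enriched in CELF2-KI RIP over both controls, while those of the NOT module, *Cnot2* and *Cnot3*, were depleted against both. Calls here needed at least a 2-fold change and an FDR (Benjamini-Hochberg) under 0.01 in edgeR's quasi-likelihood test. Against IgG RIP, 2 of 10 members were called higher, where 13.4% of the 15263 tested genes were, and 3 were called lower, where 13.5% were. Against input, 2 members were called higher (14.6% of all genes) and 3 lower (15.5% of all genes). The 2 genes called higher were the same in both comparisons. Called higher than both controls were 2 members, where 7.58% of all genes were, and called lower than both were 2 members, where 9.52% of all genes were. The 2 comparisons share the CELF2-KI RIP libraries and are therefore not independent. With 10 members, counts of 2 or 3 differ from these shares by 1 or 2 genes, and nothing particular to the complex is read from them. The median log2 fold change of the members was -0.55 against IgG RIP and -0.68 against input, beside -0.06 and 0.19 over all tested genes.

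**Figure D1:**
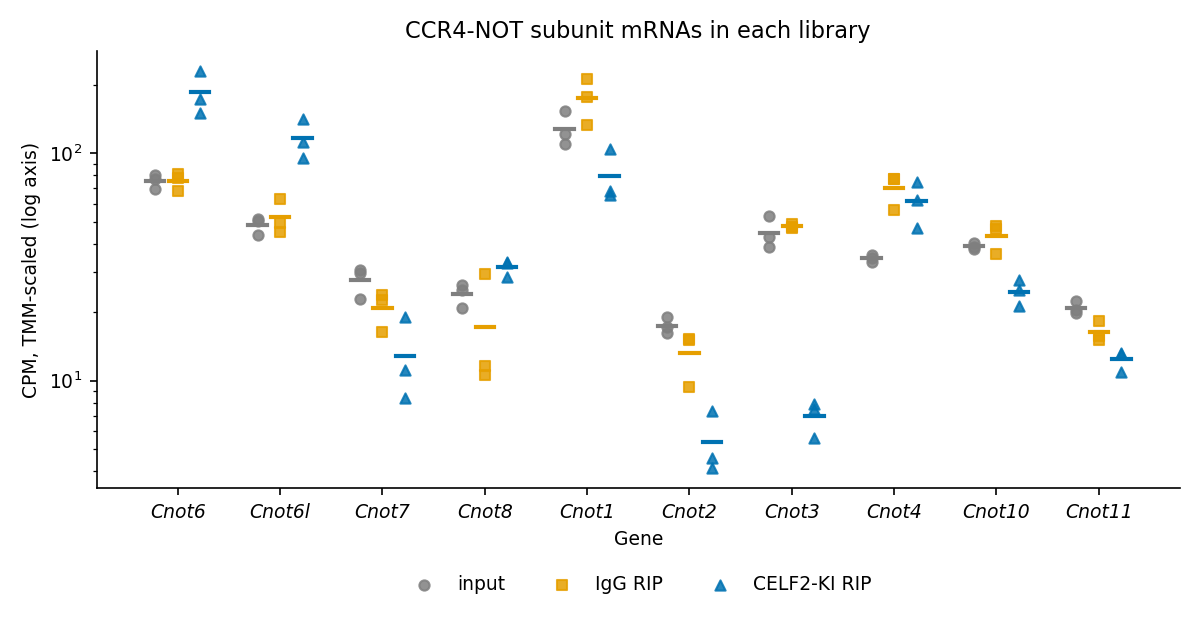
Level of each CCR4-NOT subunit mRNA in the 9 libraries, in CPM on TMM-scaled library sizes (log axis), with a point per library and a bar at the mean of each group of 3. The CELF2-KI RIP triangles lie above all control points for *Cnot6* and *Cnot6l* and below all of them for *Cnot1*, *Cnot2*, *Cnot3*, *Cnot10* and *Cnot11*.

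The CCR4-type nucleases carry the catalytic domain shared with endonucleases and exonucleases of that fold. *Cnot6* (GRCm38.p6, chr11:49671497-49713401) stood at 174, 231 and 151 CPM in CELF2-KI RIP replicates 1, 2 and 3, at 80.7, 68.2 and 77.9 CPM in IgG RIP and at 80.3, 77.1 and 69.3 CPM in input. All 3 CELF2-KI RIPs were above all 6 controls, and the controls of both kinds overlapped each other. The mean was 185 ± 41.2 CPM (SD, n = 3) against 75.6 ± 6.56 in IgG RIP and 75.5 ± 5.66 in input. This was 2.45-fold over IgG RIP (log2 fold change 1.29 ± 0.16, SE; FDR = 8.5e-05) and 2.45-fold over input (1.29 ± 0.16; FDR = 6.9e-05). Its call held in all 9 fits that left out 1 library, in both comparisons. On version-matched rows alone, those whose accession version was also that of the reference, both calls were lost (1.83, FDR = 0.013, and 0.89, FDR = 0.14).

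*Cnot6l* (chr5:96070333-96164198), the paralog of *Cnot6*, stood at 95.0, 142 and 112 CPM in CELF2-KI RIP, at 49.5, 44.9 and 62.7 CPM in IgG RIP and at 50.4, 51.2 and 43.5 CPM in input. Again no CELF2-KI RIP overlapped a control, and CELF2-KI RIP replicate 2 was the highest, as it was for *Cnot6*. The log2 fold change was 1.15 ± 0.18 (SE) over IgG RIP (2.22-fold, FDR = 0.00033) and 1.26 ± 0.17 over input (2.40-fold, FDR = 0.00015). Over IgG RIP it fell just under 2-fold, at 0.98 on the log2 scale, without CELF2-KI RIP replicate 2. On NM_ rows alone, the curated mRNAs, it missed the FDR in both comparisons (1.09, FDR = 0.019, and 1.18, FDR = 0.012), as it did on version-matched rows. With these 2 genes, 2 members lay above all 6 controls in all 3 CELF2-KI RIPs, where 25.2% of all tested genes did. Scaling by library totals alone took both below 2-fold, to 0.91 and 0.77 over IgG RIP, while it moved the median of all genes by -0.37. Relative to that median, *Cnot6* was at 1.34 and *Cnot6l* at 1.19, beside 1.35 and 1.20 under TMM scaling.

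The CAF1-type nucleases are the other catalytic pair, and their 2 mRNAs did not move together. *Cnot8* (chr11:58092794-58118597) stood at 32.9, 33.0 and 28.6 CPM in CELF2-KI RIP, at 10.6, 11.6 and 29.3 CPM in IgG RIP and at 26.2, 20.9 and 24.9 CPM in input. The IgG RIPs disagreed: replicates 1 and 2 were far below the other libraries, while replicate 3 lay within the range of CELF2-KI RIP. Its log2 fold change was 0.87 ± 0.33 (SE; FDR = 0.047) over IgG RIP and 0.39 ± 0.33 (FDR = 0.32) over input, neither of which was called. Without IgG RIP replicate 3 it was called over IgG RIP, at 1.51 (FDR = 4.9e-05), and its level in IgG RIP was then also called below that in input, at -1.11 (FDR = 0.00050).

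*Cnot7* (chr8:40492538-40515847), the paralog of *Cnot8*, stood at 11.1, 8.40 and 19.0 CPM in CELF2-KI RIP, at 16.4, 22.6 and 23.8 CPM in IgG RIP and at 29.7, 30.8 and 22.8 CPM in input. CELF2-KI RIP replicate 3 overlapped IgG RIP, and all 3 CELF2-KI RIPs were below all inputs. The gene was called lower than input (log2 fold change -1.11 ± 0.28, SE; FDR = 0.00595) and not called against IgG RIP (-0.71 ± 0.28; FDR = 0.056). The call against input held in 5 of 9 fits without 1 library. It was lost without CELF2-KI RIP replicate 1 (-1.02), CELF2-KI RIP replicate 2 (-0.88), input replicate 1 (-1.07) or input replicate 2 (-1.14). Without CELF2-KI RIP replicate 3 it was called lower than IgG RIP as well, at -1.10.

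Setting the paralogs against each other within each library takes scaling out of the comparison. The log2 ratio of *Cnot6* to *Cnot6l* was 0.67 ± 0.22 (SD, n = 3) in CELF2-KI RIP, 0.54 ± 0.20 in IgG RIP and 0.64 ± 0.05 in input. The groups overlapped, and the differences of 0.13 and 0.02 gave p = 0.6 and p = 0.8 in the exact 2-sided permutation test (adjusted p = 0.8 for both). The log2 ratio of *Cnot7* to *Cnot8* was -1.38 ± 0.71 in CELF2-KI RIP, 0.43 ± 0.66 in IgG RIP and 0.20 ± 0.34 in input. Here the CELF2-KI RIPs, at -1.56, -1.98 and -0.59, lay below every IgG RIP (0.63, 0.96 and -0.30) and every input (0.18, 0.56 and -0.13). The differences were -1.81 and -1.58, each with p = 0.1 in the exact permutation test (0.2 after Benjamini-Hochberg adjustment over the 4 comparisons of this kind), which is the smallest p that 3 against 3 allows, so that none of them could pass 0.05.

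**Figure D2:**
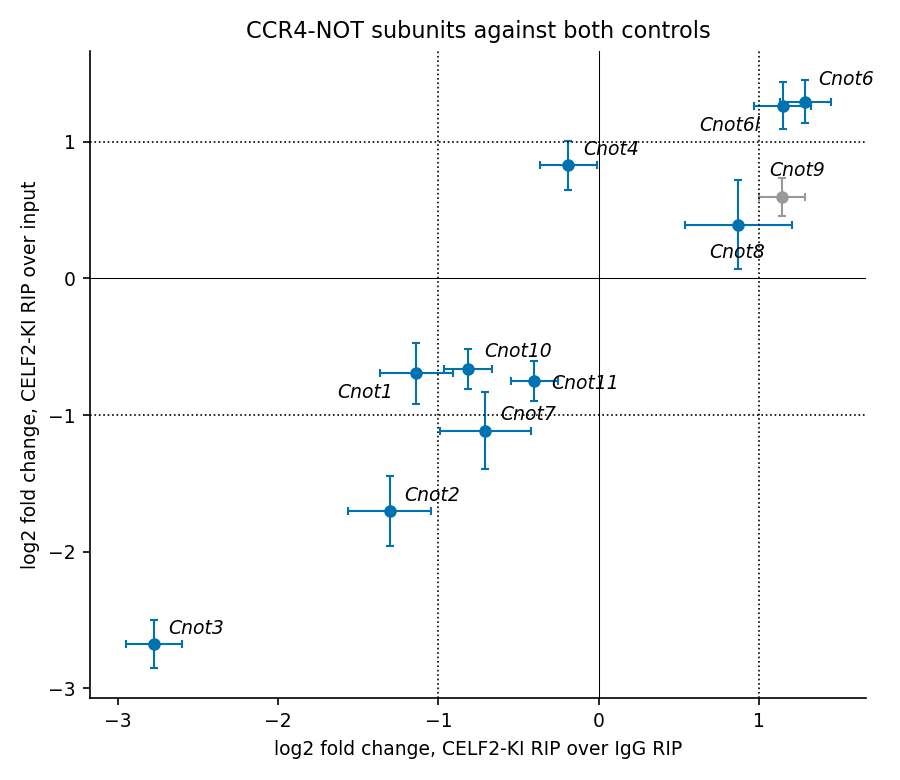
Log2 fold change of each subunit over IgG RIP (horizontal) and over input (vertical) from the edgeR fit, with bars of 1 SE and dotted lines at 2-fold. *Cnot6* and *Cnot6l* lie beyond 2-fold in both directions of comparison at the upper right, *Cnot3* lies farthest at the lower left (-2.77 and -2.68), and *Cnot9*, which is not one of the 10, is grey.

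*Cnot1* (chr8:95718931-95808113), the scaffold on which the other subunits assemble, stood at 68.0, 65.2 and 104 CPM in CELF2-KI RIP, at 133, 213 and 177 CPM in IgG RIP and at 109, 122 and 153 CPM in input. All CELF2-KI RIPs were below all controls, but replicate 3 came close to the lowest input. It was called lower than IgG RIP (log2 fold change -1.14 ± 0.23, SE; FDR = 0.0017) and not called against input (-0.70 ± 0.22; FDR = 0.021). Without IgG RIP replicate 2, the highest library for this gene, it fell short of 2-fold against IgG RIP (-0.96). With library totals *Cnot1* was called lower than input (-1.15, FDR = 0.0017).

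CNOT2 and CNOT3 pair at the C-terminus of CNOT1 and hold the NOT module together. *Cnot3* (chr7:3645247-3661109) stood at 5.60, 7.47 and 7.86 CPM in CELF2-KI RIP, at 47.4, 47.0 and 48.7 CPM in IgG RIP and at 42.7, 38.5 and 52.8 CPM in input. The groups were far apart, and this was the strongest change among the 10 genes. The mean of 6.98 ± 1.21 CPM (SD, n = 3) compared with 47.7 ± 0.876 in IgG RIP, a 6.84-fold depletion (log2 fold change -2.77 ± 0.18, SE; FDR = 5.9e-06), and with 44.7 ± 7.33 in input, a 6.41-fold depletion (-2.68 ± 0.18; FDR = 2.1e-06). In all 9 fits without 1 library it stayed called in both comparisons, between -2.88 and -2.64 against IgG RIP. It was also the only member that passed when the test itself was set against a 2-fold change.

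*Cnot2* (chr10:116485160-116581900), its partner, stood at 7.36, 4.54 and 4.11 CPM in CELF2-KI RIP, at 15.2, 15.1 and 9.39 CPM in IgG RIP and at 18.9, 16.2 and 17.2 CPM in input. CELF2-KI RIP was below every control in all 3 libraries. It was called lower than IgG RIP (log2 fold change -1.30 ± 0.26, SE; FDR = 0.0018) and than input (-1.70 ± 0.26; FDR = 0.00027), in all 9 fits without 1 library. On NM_ rows alone both calls were lost (-1.10, FDR = 0.25, and -2.004, FDR = 0.051).

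CNOT10 and CNOT11 bind each other and the N-terminus of CNOT1 and form the N-terminal module. *Cnot10* (chr9:114585874-114640220) stood at 24.9, 21.3 and 27.7 CPM in CELF2-KI RIP, at 47.8, 35.9 and 46.2 CPM in IgG RIP and at 38.8, 40.1 and 38.0 CPM in input. Its CELF2-KI RIPs were below all controls, and its FDR passed 0.01 (0.0011 and 0.0032), but the sizes of -0.82 ± 0.15 (SE) and -0.66 ± 0.15 stayed under 2-fold. This turned on scaling: *Cnot10* was called lower than IgG RIP with library totals (-1.18, FDR = 0.00019) and upper quartile scaling (-1.08, FDR = 0.00020). With library totals it was also called lower than input (-1.12, FDR = 0.00023). Relative to the median of all genes, it was at -0.76 against IgG RIP under TMM scaling and under both of these. *Cnot11* (chr1:39535701-39546881) stood at 13.1, 10.9 and 13.2 CPM in CELF2-KI RIP, at 18.2, 15.8 and 15.1 CPM in IgG RIP and at 20.5, 19.8 and 22.3 CPM in input. It too was below all controls without reaching 2-fold, at -0.40 ± 0.15 (FDR = 0.040) against IgG RIP and -0.75 ± 0.14 (FDR = 0.0012) against input. With library totals *Cnot11* was called lower than input (-1.21, FDR = 0.00013). In all, 5 members lay below all 6 controls in all 3 CELF2-KI RIPs, where 19.9% of all tested genes did.

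*Cnot4* (chr6:35022065-35133754) encodes the RING-type ubiquitin ligase. It stood at 47.1, 74.5 and 62.4 CPM in CELF2-KI RIP, at 76.6, 76.8 and 56.4 CPM in IgG RIP and at 34.8, 35.5 and 33.4 CPM in input. The RIPs of both kinds overlapped each other and were all above input. It was not called over IgG RIP (log2 fold change -0.19 ± 0.18, SE; FDR = 0.40). Over input it passed the FDR and not the fold (0.83 ± 0.18; FDR = 0.0026). *Cnot4* was the only member called in IgG RIP over input (1.02 ± 0.18; FDR = 0.0019), so 1 of 10 was called higher, where 6.79% of all genes were, and 0 were called lower, where 5.01% were. At an unadjusted p under 0.05 the same test gave 2 members, and the share of all genes at that threshold is not given here. The call of *Cnot4* was lost with DESeq2 (log2 fold change 0.94) and without IgG RIP replicate 1 (0.95), IgG RIP replicate 2 (0.94), input replicate 1 (1.004) or input replicate 3 (0.98). The other 9 subunits were not called between the controls, and the median of the members there was 0.05, beside -0.003 over all genes.

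The counts of a gene are the sum over its RefSeq rows: curated mRNAs (NM_), predicted mRNAs (XM_) and predicted noncoding transcripts (XR_). How the counts fell on these classes differed between genes and, for some, between groups. These shares are given as a description, because kallisto divides reads among overlapping isoforms and the uncertainty of that division is not in the deposited counts. For *Cnot4*, XR_ rows held between 44.9% and 53.8% of its counts in input, between 70.4% and 80.1% in IgG RIP and between 85.3% and 89.0% in CELF2-KI RIP. The 3 groups did not overlap, and the NM_ share went from between 43.8% and 50.4% in input to between 11.0% and 14.7% in CELF2-KI RIP. Counted on NM_ rows alone, *Cnot4* over input turned from 0.83 to -1.06 on the log2 scale (FDR = 0.0026), and against IgG RIP it was called lower (-1.24, FDR = 0.0013), as with version-matched rows (-1.51, FDR = 0.0015). In IgG RIP over input it was then no longer called (0.18, FDR = 0.56), and *Cnot1* was called in its place (1.48, FDR = 0.0030).

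For *Cnot7*, NM_ rows held between 92.3% and 94.6% of the counts in input, between 38.3% and 77.9% in IgG RIP and between 19.3% and 55.4% in CELF2-KI RIP. Both kinds of RIP were below input and overlapped each other. For *Cnot3* the NM_ row held between 73.0% and 81.6% in input and between 22.7% and 50.0% in CELF2-KI RIP, while the IgG RIPs spread from 48.6% to 82.2%. For *Cnot6* the NM_ rows took between 92.6% and 97.5% of the counts in CELF2-KI RIP, between 71.8% and 82.9% in IgG RIP and between 86.4% and 96.1% in input, so most of the counts behind its enrichment lay on curated mRNAs. *Cnot1* was mostly counted on predicted rows: its NM_ rows held between 6.50% and 21.2% of its counts in any library, and on those rows alone its change against input was 0.21 in place of -0.70. In IgG RIP replicate 3, XR_ rows took 83.8% of the *Cnot1* counts, against 24.6% and 26.1% in the other IgG RIPs.

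**Figure D3:**
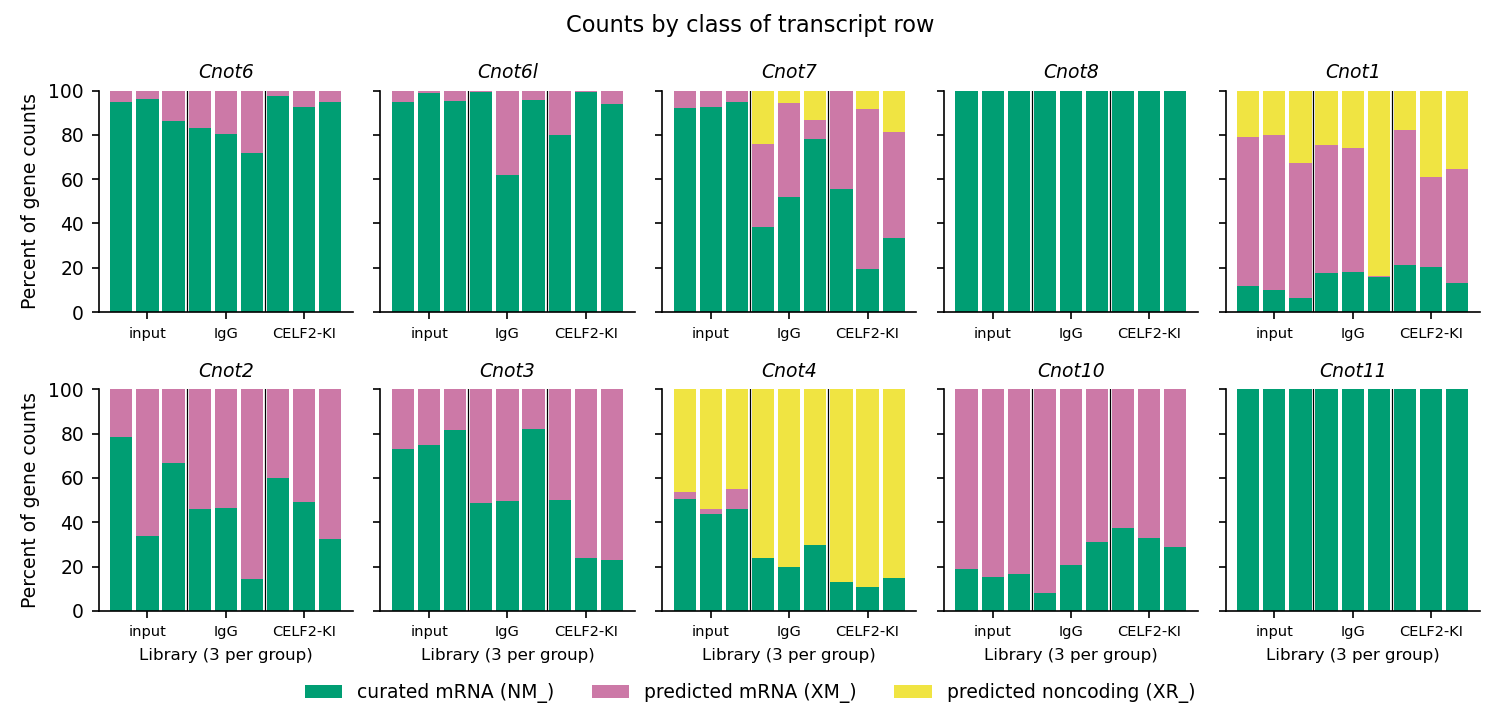
Percent of each gene's estimated counts on curated mRNA, predicted mRNA and predicted noncoding rows, with a stacked bar per library in the order input, IgG RIP and CELF2-KI RIP (3 each). The noncoding share of *Cnot4* increases from input to IgG RIP to CELF2-KI RIP, whereas *Cnot8* and *Cnot11* were counted on a single curated row.

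Row by row, 48 of the 68 rows passed the filter on low counts. Against IgG RIP, 1 row was called higher, where 3.19% of the 39129 tested rows were, and 1 was called lower, where 3.14% were. Against input, 0 rows were called higher, where 0.94% of all rows were, and 2 lower, where 4.51% were. The row that was lower in both comparisons was NM_146176.3, the curated *Cnot3* mRNA. It held 35, 23 and 20 counts in CELF2-KI RIP, 368, 234 and 558 counts in IgG RIP, and, in the deeper input, 1960, 2615 and 2662 counts. It was at -3.98 on the log2 scale against IgG RIP (FDR = 0.00096) and at -4.48 against input (FDR = 0.00047). It was called in all 9 fits without 1 library, in both comparisons. The other row lower than input was NM_028043.2, the single row of *Cnot11* (-1.23, FDR = 0.0085), whose call was lost in 8 of those 9 fits and held without IgG RIP replicate 3.

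The row called higher than IgG RIP was the curated *Cnot6l* isoform NM_001285514.1. It held 157, 74 and 40 counts in CELF2-KI RIP, 0 in each IgG RIP, and 145, 159 and 117 counts in input. Set against a floor of 3 counts in each IgG RIP library, it was at least 31.2-fold higher in CELF2-KI RIP, or at least 19.9-fold without CELF2-KI RIP replicate 1. The floor covers counting only, and not how kallisto divided reads among isoforms. *Cnot6l* as a whole was 2.22-fold higher than in IgG RIP. In the diffSpliceDGE test against the other rows of its gene, the row had an FDR of 0.083. The call of this row over IgG RIP was lost without CELF2-KI RIP replicate 2 and when any 1 of the 3 inputs was left out. It was not called over input, with an FDR of 0.31, and no *Cnot6* row was called on its own. The most abundant *Cnot6* row, NM_001290741.1, was at 1.20 over IgG RIP with an FDR of 0.018 and at 0.99 over input with an FDR of 0.040. The row counts turned on single libraries: leaving out IgG RIP replicate 1 or CELF2-KI RIP replicate 1 also gave 2 higher rows, each time with a *Cnot1* row added, and leaving out input replicate 3 put NM_001290741.1 in place of the *Cnot6l* row. Leaving out input replicate 1, input replicate 2 or CELF2-KI RIP replicate 2 gave 0 higher rows. Without IgG RIP replicate 3 the counts of called rows grew to 2 higher and 3 lower than IgG RIP, and to 1 higher and 4 lower than input. Added to the calls were *Cnot8* NM_026949.3 (1.28) among the higher and *Cnot3* XM_006539757.3 (-2.14) and *Cnot4* NM_001164412.1 among the lower against IgG RIP. Against input they were *Cnot6l* NM_144910.2 (4.09) among the higher and *Cnot10* XM_006512399.3 (-2.59) and the same *Cnot4* row among the lower. That *Cnot4* row held 0 counts in every CELF2-KI RIP and in IgG RIP replicate 3, 107 and 80 counts in the other IgG RIPs, and 263, 843 and 540 counts in input.

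Each row was also tested against the other rows of its gene, for the 46 rows of the 8 members that had at least 2 tested rows. At an FDR under 0.01, 0 rows were called over IgG RIP, where 0.718% of all rows were, 0 over input, where 0.505% were, and 0 in IgG RIP over input, where 0.629% were. The edgeR test gave 9, 13 and 16 rows at an unadjusted p under 0.05, and the lowest FDR was 0.053, 0.028 and 0.014. The share of all rows at that unadjusted threshold is not given here, so these counts are not read as particular to the members. Without IgG RIP replicate 3, 1 row was called in CELF2-KI RIP over IgG RIP, the *Cnot4* mRNA NM_001164412.1 (FDR = 0.00016), and without CELF2-KI RIP replicate 2 it was the predicted *Cnot6* mRNA XM_006531941.3 (FDR = 0.0062). Without IgG RIP replicate 3 the same *Cnot4* row was called over input too (FDR = 2.9e-05). In IgG RIP over input the predicted *Cnot6l* mRNA XM_006534871.1 was called without IgG RIP replicate 1 (FDR = 0.0075) or replicate 3 (FDR = 0.0077). The row-level fit had a common biological coefficient of variation of 0.995, against 0.221 for whole genes, so single isoforms were measured far less precisely than genes.

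The subunit that the 10 do not include, *Cnot9*, encodes the recruitment platform for microRNA partners and other RNA-binding proteins. It stood at 73.5, 74.8 and 72.1 CPM in CELF2-KI RIP, at 27.9, 31.2 and 40.5 CPM in IgG RIP and at 47.9, 46.8 and 51.3 CPM in input. Its CELF2-KI RIPs were above all controls, but it was called over IgG RIP (log2 fold change 1.15 ± 0.14, SE; FDR = 9.7e-05) and not over input (0.59 ± 0.14; FDR = 0.0043). The call over IgG RIP was lost with library totals (0.78), upper quartile scaling (0.88), version-matched rows (0.63) and NM_ rows (0.61). *Tnks1bp1*, which encodes a large protein that copurifies with the complex, was not called against either control (-0.30 ± 0.14 and 0.14 ± 0.14).

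Around the complex, 57 of 59 genes of deadenylation and decay in 5 lists were tested, and *Btg4* and *Pabpc6* did not pass the filter. Against IgG RIP, 11 were called higher (13.4% of all tested genes were), 3 lower (13.5% of all) and 43 were not called, with a median log2 fold change of 0.33. Without IgG RIP replicate 3 the counts were 10 and 4, and the lower count was 6 without input replicate 2 and 7 without CELF2-KI RIP replicate 1. Against input, 16 were called higher (14.6% of all) and 6 lower (15.5% of all). Of the 9 other deadenylases, 1 was called higher and 0 lower (median 0.51). It was *Angel1*, which encodes a protein of the same fold as the CCR4-type nucleases, at 1.37 over IgG RIP and 1.09 over input. Its call over input was lost under each other scaling, without the filter and with only the 2 groups compared (between 0.63 and 0.98), and on NM_ rows it missed the FDR against both controls (0.22 and 0.61). Of 23 factors that recruit the complex to mRNAs, 5 were called higher and 0 lower (median 0.66), beside 13.4% of all tested genes called higher. The count was 4 without IgG RIP replicate 3, 3 without input replicate 2, 2 with NM_ or version-matched rows and 1 with upper quartile or library-total scaling. Among them was *Pum2*, which encodes an RNA-binding protein that brings CCR4-NOT to mRNAs with its binding element. *Pum2* was at 1.19 over IgG RIP and, short of 2-fold, at 0.97 over input. Its call over IgG RIP was lost with library totals (0.82) and upper quartile scaling (0.93).

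Of 5 poly(A)-binding proteins and partners, 1 was called higher than IgG RIP and 0 lower (median 0.11), beside 13.4% and 13.5% of all tested genes. The gene called was *Paip2b*, which encodes an inhibitor of the poly(A)-binding protein, at 1.26 over IgG RIP and 1.29 over input. Its call over IgG RIP was lost with library totals (0.90) and upper quartile scaling (0.998), and its call over input with library totals (0.83). Of 18 genes of decapping and decay from the cap, which follow deadenylation, 3 were called higher and 3 lower (median 0.13), beside the same shares. *Ddx6*, the helicase that links CCR4-NOT to decapping, was at 1.40 over IgG RIP and 1.05 over input, and *Dcp2*, the decapping enzyme, at 1.32 and 1.86. The call of *Ddx6* over input was lost under each other scaling (between 0.58 and 0.91) and without input replicate 2 (0.99) or replicate 3 (0.93). That of *Dcp2* over IgG RIP was lost with library totals (0.94). *Lsm5* and *Lsm3*, which encode small ring proteins that bind shortened tails, were lower, at -2.70 and -1.58 against IgG RIP and -2.88 and -2.64 against input. The others from *Lsm1* to *Lsm7* went both ways. Against IgG RIP, *Lsm2* was called lower (-1.46), and *Lsm1* (-0.91) and *Lsm4* (-0.90) were not called. *Lsm6* (0.66) and *Lsm7* (0.78) were above 0 there. *Lsm6* was called higher than input (1.003), in 5 of 9 fits without 1 library. *Lsm5* was scarce, between 0.240 and 0.385 CPM in CELF2-KI RIP and between 1.08 and 2.69 CPM in the controls. Over the 5 lists, 6 genes were called higher than both controls, where 7.58% of all tested genes were. With scaling by library totals alone, 3 genes were called higher and 8 lower than IgG RIP, while the median of all genes moved by -0.37.

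**Figure D4:**
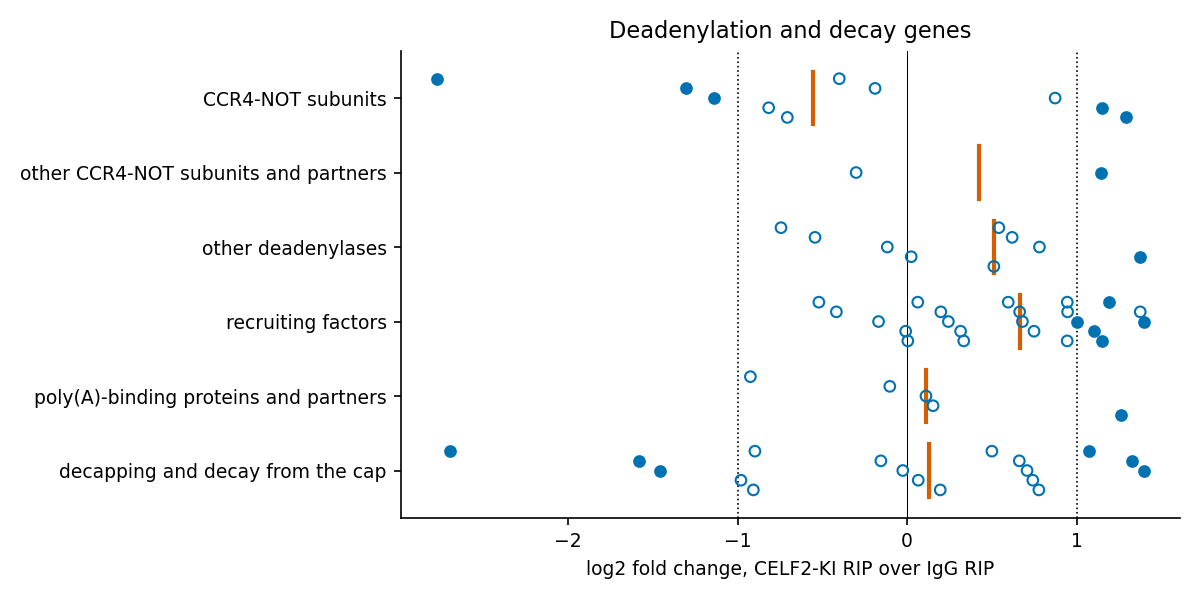
Log2 fold change over IgG RIP of the 10 CCR4-NOT subunits and of 57 genes in 5 lists of deadenylation and decay, with a point per gene (filled where called), an orange bar at each list's median and dotted lines at 2-fold. The subunits have the lowest median (-0.55), whereas the factors that recruit the complex have the highest (0.66). Of these factors 5 of 23 were called higher, where 13.4% of all tested genes were.

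Genes whose levels followed the mean profile of the 10 subunits closely over the 9 libraries, among 9711 candidates with at least 10 CPM on average, included *Nucb2* (Pearson r = 0.984), *Ntm* (0.978), *Gadd45gip1* (0.976) and *Ruvbl2* (0.975). The 9 libraries fall into 3 groups and share their scaling, and the subunits went in opposite directions, so the profile is an average of unlike genes and these correlations are only a description.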

How the data were processed

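RNA was measured in 9 libraries (3 inputs, 3 IgG RIPs and 3 CELF2-KI RIPs). Per the paper's methods and the processing notes, rRNA was depleted, directional libraries were sequenced, and reads were checked with FastQC 0.11.9, trimmed with fastp 0.23.4, cleared of rRNA with Ribodetector 0.3.1 and pseudoaligned with kallisto 0.51.1. The authors deposited estimated counts for 107384 transcript rows, not normalized for depth or length. The processing notes name mm10. The methods name an Ensembl transcriptome, and the rows carry RefSeq accessions. The accession of a row, without its version, was looked up in the RefSeq table of GRCm38.p6, and 20670 rows that found no gene were left out. This loss was unequal: the rows left out carried 43.48%, 41.55% and 21.08% of all counts for IgG RIP replicates 1, 2 and 3. For the CELF2-KI RIPs they carried 12.09%, 12.65% and 11.64%, and for the inputs 9.785%, 9.269% and 9.542%. The effect of this loss on the calls was not tested. Of 108 reference transcripts of the members, 40 had no row, and 36 member rows matched in version too. Transcript lengths were not used, so levels were not compared between genes.

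Counts were summed per gene, rounded and tested in edgeR 4.0.16 (R 4.3.3, limma 3.58.1) with TMM scaling, a mean per group over all 9 libraries and the quasi-likelihood test, for protein-coding genes that reached 0.5 CPM in 3 or more libraries. Rows were fitted the same way and against the rest of their gene with diffSpliceDGE. Standard errors were derived from the log2 fold change and the F statistic. Paralog log ratios were compared by exact permutation. DESeq2 1.42.0, other scalings, filters, row sets and fits without 1 library were alternatives. Row classes and the tests of a row against its gene over input and in IgG RIP over input were added after seeing the data. Protein-coding counts were between 13519246 and 16836302 per library in CELF2-KI RIP, between 9344255 and 14960822 in IgG RIP and between 55229664 and 78483566 in input. TMM factors were between 0.771 and 0.878, between 1.05 and 1.08, and between 1.12 and 1.16. Reads carried no molecular identifiers, so errors and floors cover counting and the spread of these libraries only. Steps were tested on simulated data. The simulated rows had less spread than the 0.995 of the row-level fit, so the row tests were not checked at that spread.

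The members, lists and named genes were chosen with earlier results of these data known. The named genes were all members, *Cnot9*, *Tnks1bp1*, *Celf2*, up to 2 called genes with the largest rise and fall over IgG RIP in each other list, and the 5 most alike genes by correlation of log2(CPM + 1). Some genes that this rule names are not reported here. Deviations from the group means were correlated across genes between same-numbered libraries. The values were 0.110, 0.117 and 0.123 between input and CELF2-KI RIP, and between -0.056 and 0.0646 for the other groups. Libraries of different number were not compared, so these small values do not show whether the replicate number marks pairs. The replicate number entered as an alternative.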

Additional observations from a re-analysis of the deposited data

How the results depend on the processing

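The calls of members depended most on scaling, on the rows summed and on the form of the test. Over the 10 members and 3 comparisons, 523 of the recomputed values kept direction and call. With the sign kept, 38 lost the call and 11 gained it, and 19 changed sign. Among those 19, *Cnot4* was also called lower than input with version-matched and with NM_ rows. With library totals alone, members called higher went from 2 to 0 over IgG RIP, over input and over both controls, and members called lower went from 3 to 6 against input and from 2 to 4 against both. Library totals also moved the median log2 fold change of all genes over IgG RIP by -0.37. The shares of all genes called under the alternatives are not given here. The counts of members and pathway genes under them are therefore not read as particular to either. With upper quartile scaling 1 member stayed higher than IgG RIP and than both. With the test set against 2-fold (glmTreat), 0 were higher and 1 was lower in CELF2-KI RIP against each control and against both. With version-matched rows only, in which *Cnot1*, *Cnot8* and *Cnot11* had no counts, 0 were higher in each, and with NM_ rows only 1 was. The 1 member called in IgG RIP over input went to 0 under DESeq2 size factors, library totals, no filter, the DESeq2 Wald test, glmTreat and version-matched rows. With NM_ rows the count of 1 stayed but was *Cnot1* (1.48) and not *Cnot4* (0.18), and the 3 lower than IgG RIP and than input then held *Cnot4* (-1.24 and -1.06) and not *Cnot2* (-1.10 and -2.004).

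Of the 57 pathway genes, 11 were called higher than IgG RIP, and 3 were with library totals, 4 with upper quartile scaling, 0 with glmTreat and 6 with either row set. The 3 called lower became 8 with either scaling, 5 without the filter, 0 with glmTreat, 6 with version-matched rows and 5 with NM_ rows.

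Against input, these log2 fold changes changed sign: *Cnot1* to 0.21 and *Cnot10* to 0.28 with NM_ rows, *Cnot4* to -1.21 with version-matched and -1.06 with NM_ rows, and *Cnot8* to -0.068 with library totals. *Tnks1bp1* went to -0.31 with library totals, -0.097 with upper quartile scaling, -0.34 with version-matched rows, -0.52 with NM_ rows and -0.082 with only the 2 groups compared. In IgG RIP over input, *Cnot3* went to -0.20 with version-matched and -0.14 with NM_ rows. *Cnot6*, at 0.002 there, went to -0.070 under both DESeq2 settings, -0.093 with library totals, -0.026 without the filter, -0.94 with version-matched rows, -0.11 with NM_ rows and -0.0034 with only the 2 groups. The cause of these changes was not tested.

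Leaving out 1 library at a time gave between 1 and 3 members higher than IgG RIP, between 1 and 2 higher than both controls, between 0 and 1 higher and between 0 and 1 lower in IgG RIP than in input, and between 3 and 7 pathway genes lower than IgG RIP. It moved *Tnks1bp1* over input between -0.031 and 0.27 and, in IgG RIP over input, *Cnot3* between -0.010 and 0.22, *Cnot6* between -0.073 and 0.062 and *Cnot6l* between -0.030 and 0.21. Rows called over IgG RIP were between 0 and 2 higher and between 1 and 3 lower, over input between 0 and 1 higher and between 1 and 4 lower, and rows differing from their gene between 0 and 1. The difference of the *Cnot6* to *Cnot6l* log ratio from input was between -0.077 and 0.14.

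With the replicate block, 2 members were higher and 3 lower than each control, as without it. Under the replicate block, 0 rows were higher than IgG RIP and 1 was lower than input, where DESeq2 size factors, library totals, upper quartile scaling and no filter also gave 1 in place of 2. It changed no other call of a member gene. Depth limits what can be said of the 10 member rows that held no count.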
